A study of Mus musculus with 36 samples.

Results

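Growth hormone from the pituitary acts on the liver, where it drives the release of insulin-like growth factor 1 (IGF-1) into the blood. The part of the array data described here covers 9 genes of this axis, taken as every probe whose symbol in the platform annotation was Igf1, Igfals, Ghr, Socs2, Cish, Igfbp1, Igfbp2, Igfbp4 or Igfbp7. The rule found 13 probes of the 23982 in the value table, for 9 of the 14739 genes with a symbol. Igf1 and Igfbp4 have 2 probes each, Igfbp7 has 3 and each of the other genes has 1, and probes of a gene are numbered in the order of their identifiers.

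The study hybridised total RNA from 2 organs of male BALB/c mice, spleen and liver, to 36 Illumina BeadChip arrays, with 12 groups of 3 arrays. All mice, controls included, were on ordinary chow and carried J558 cells, a mouse myeloma line injected under the skin at the back of the neck. They drank oil palm phenolics (OPP, a water-soluble polyphenol extract of the oil palm) at 1500 ppm gallic acid equivalents, or distilled water. Groups were labelled 18 hours, 1 week and 4 weeks, at 6, 7 and 10 weeks of life. No group was free of J558 cells, age and time cannot be told apart, and the treatment text of every sample speaks of 4 weeks after inoculation, so what the times stand for is open to doubt. Whether a replicate was 1 mouse or a pool is not in the labels, so p-values rest on the spread between arrays, which may be technical.

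GHR, the growth hormone receptor, signals through the kinase JAK2 and the factor STAT5, which switches on Igf1, Igfals, Socs2 and Cish. IGFALS, the acid-labile subunit, holds IGF-1 in a long-lived complex in blood, and SOCS2 and CISH are inhibitors made in response to the signal that damp it. IGF-binding proteins carry IGF-1 and limit its access to its receptor. IGFBP1 is a liver protein that insulin represses within hours, IGFBP2 is an abundant serum carrier made in the liver, IGFBP4 is broadly made, and IGFBP7 is a related protein of blood vessels and connective tissue with weak binding to IGF-1. Outside the liver, macrophages are among the cells known to make IGF-1.

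STAT5 binds the palindrome TTCNNNGAA, and FOXO1, the factor that insulin keeps out of the nucleus, binds CAAAACAA in the insulin-response element of Igfbp1. Both motifs were searched on both strands in windows from 250 bases before to 50 bases after each start in RefSeq (GRCm38.p6); no window of these genes held both. Of the 9 genes, 8 matched, with 12 windows. The palindrome lay in 8.3% of all 32851 windows and the FOXO1 motif in 2.51%. Cish held 2 copies of the palindrome, Igfals held 1 in each of 2 windows, and Igfbp1 held 1 FOXO1 motif. A match is a description of letters and not a site of binding. The promoters of Cish and Igfbp1 are shown for the motifs, in capitals, and those of Igf1, Igfbp2 and Ghr because these genes rose together in liver; their windows held neither motif. Each runs 5′ to 3′ on the strand of the gene.
Cish (chr9:107296409-107296708, plus strand): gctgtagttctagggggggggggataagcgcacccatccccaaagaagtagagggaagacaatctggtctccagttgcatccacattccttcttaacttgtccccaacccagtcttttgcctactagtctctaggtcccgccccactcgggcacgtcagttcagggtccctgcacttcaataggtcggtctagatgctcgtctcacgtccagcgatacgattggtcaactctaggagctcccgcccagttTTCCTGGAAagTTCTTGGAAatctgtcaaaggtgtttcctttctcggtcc
Igfbp1 (chr11:7197537-7197836, plus strand): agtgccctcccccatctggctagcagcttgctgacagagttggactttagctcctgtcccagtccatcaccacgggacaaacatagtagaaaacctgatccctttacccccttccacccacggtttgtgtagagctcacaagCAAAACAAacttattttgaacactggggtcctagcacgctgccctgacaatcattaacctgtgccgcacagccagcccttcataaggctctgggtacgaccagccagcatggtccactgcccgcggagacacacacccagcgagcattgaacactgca
Igf1 (chr10:87860861-87861160, plus strand): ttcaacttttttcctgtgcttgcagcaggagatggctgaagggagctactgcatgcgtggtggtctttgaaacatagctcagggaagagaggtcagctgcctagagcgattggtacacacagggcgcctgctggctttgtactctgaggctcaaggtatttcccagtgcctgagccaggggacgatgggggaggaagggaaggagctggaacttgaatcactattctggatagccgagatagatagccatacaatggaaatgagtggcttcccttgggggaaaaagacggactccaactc
Igfbp2 (chr1:72824230-72824529, plus strand): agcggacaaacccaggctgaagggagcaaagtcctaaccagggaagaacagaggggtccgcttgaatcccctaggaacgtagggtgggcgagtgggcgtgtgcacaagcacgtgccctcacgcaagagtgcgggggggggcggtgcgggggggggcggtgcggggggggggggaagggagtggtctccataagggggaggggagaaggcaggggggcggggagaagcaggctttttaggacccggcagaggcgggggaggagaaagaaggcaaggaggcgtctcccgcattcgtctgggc
Ghr (chr15:3583303-3583602, minus strand): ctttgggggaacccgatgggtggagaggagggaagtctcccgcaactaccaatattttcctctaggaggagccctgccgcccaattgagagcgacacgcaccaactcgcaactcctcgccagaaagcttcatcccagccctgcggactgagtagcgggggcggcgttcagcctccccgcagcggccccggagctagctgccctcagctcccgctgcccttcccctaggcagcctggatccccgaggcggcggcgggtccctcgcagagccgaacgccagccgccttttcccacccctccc

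Each deposited value divides a probe by the median of that probe in the 18 arrays of 1 tissue, so a value of 1 is that median and no absolute level is kept. Levels therefore cannot be set between genes or between tissues, and the labelled tissue cannot be checked against its markers. Differences are of log2 ratios, given with the SE (standard error) from limma and 3 arrays per group, and a call means an adjusted p (Benjamini-Hochberg, over the whole table) under 0.05. In bulk RNA, fewer cells of a type and less RNA per cell cannot be told apart. Array medians of the log2 ratio lay between -0.03 and 0.04 in liver, between -0.06 and 0.00 in spleen at 18 hours and 1 week, and between 0.08 and 0.11 in spleen at 4 weeks. Spleen replicates 2 and 3 of water at 18 hours and replicate 1 of OPP at 1 week had high hepatocyte marker medians (1.17, 0.77 and 0.97), liver replicate 1 of OPP at 4 weeks a high pancreatic acinar median (4.87), and liver replicate 3 of water at 1 week a high adipocyte median (1.12). Calls of the members that are lost or gained without these 5 arrays are given beside the results.

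**Figure D1:**
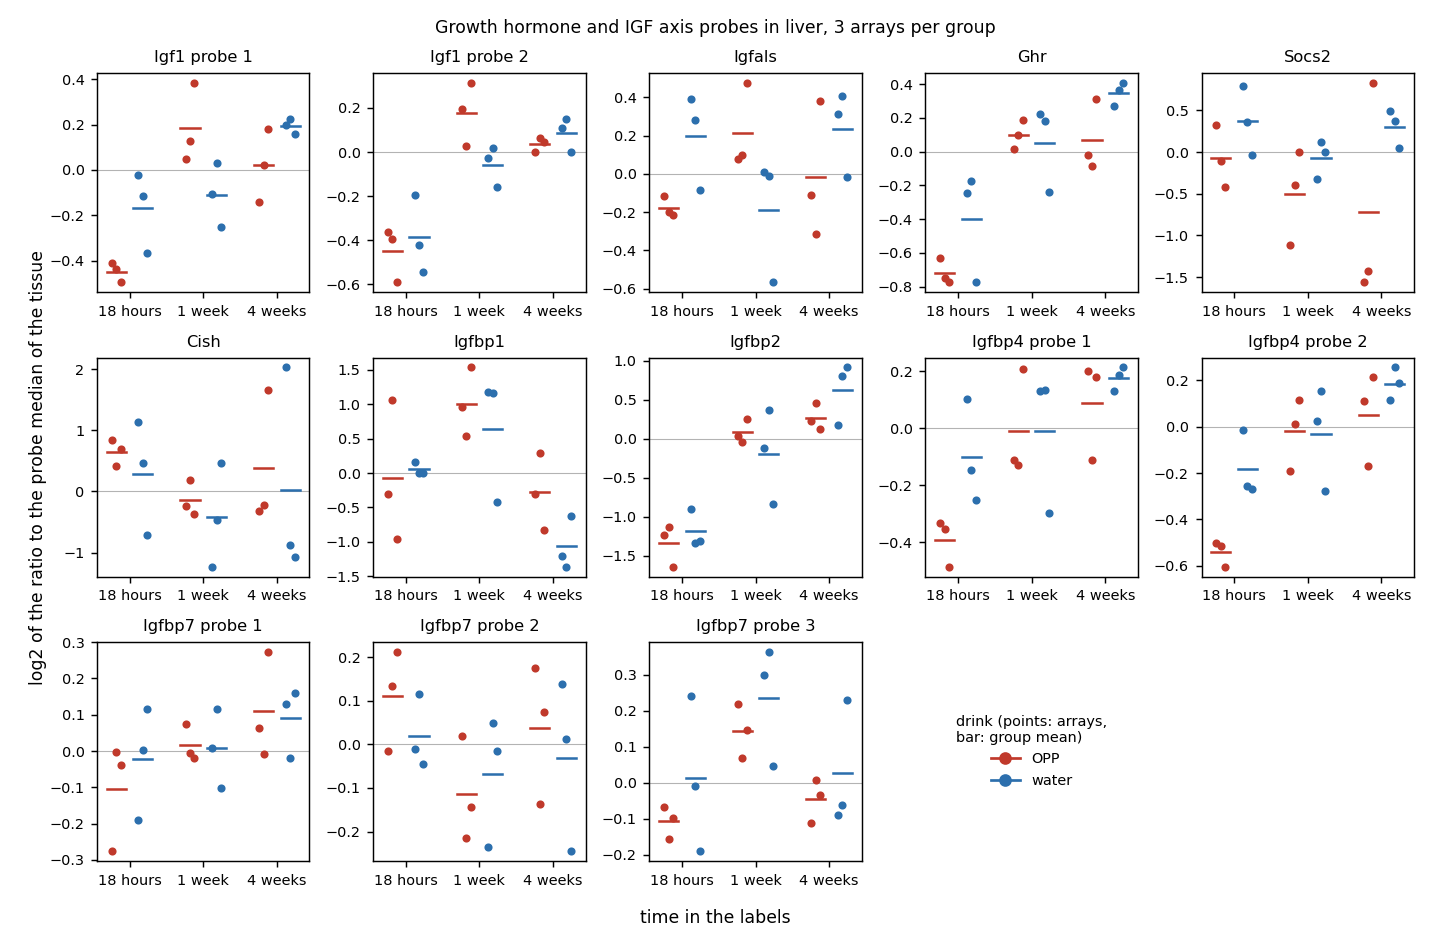
Log2 ratio (vertical axis) of the 13 probes in the 18 liver arrays at each time (horizontal axis), with OPP in red left of water in blue, a point per array and a bar at each group mean. Igfbp2 lay below its median at 18 hours in all 6 arrays, while Socs2 and Cish had single arrays far from the rest of their group at 4 weeks.

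In liver the clearest movement in the axis was with time, in both drinks. Igfbp2, Ghr and Igf1 were all higher at 4 weeks, at 10 weeks of life, than at 18 hours, at 6 weeks of life, with folds of 3.04 and 1.73 in OPP mice and of 3.52 and 1.67 in water mice for Igfbp2 and Ghr. In OPP mice 6 of the 13 probes were called at 4 weeks against 18 hours, all higher, where 13.7% of all probes were called higher and 16.9% in either direction. In water mice 4 of the 13 were called, all higher, where 5.91% of all probes were called higher and 9.21% in either direction. For 1 week against 18 hours the counts were 6 of 13 in OPP mice (14.7% of all probes called higher, 17.3% in either direction) and 2 of 13 in water mice (4.46% and 7.12%), again all higher. At 4 weeks the median difference of the 13 probes was 0.22 in OPP mice and 0.11 in water mice, and that of all probes 0.04 and 0.02.

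Igfbp2 had the widest separation. Its ratios in OPP livers were 0.424, 0.459 and 0.321 at 18 hours, 1.03, 0.970 and 1.19 at 1 week, and 1.17, 1.37 and 1.09 at 4 weeks. In water livers they were 0.537, 0.395 and 0.403 at 18 hours, 0.923, 1.29 and 0.562 at 1 week, and 1.13, 1.75 and 1.89 at 4 weeks. Every array of 18 hours lay below every array of the later times. Igfbp2 rose by 1.60 (SE 0.24, adjusted p 0.000138) in OPP mice and by 1.82 (SE 0.24, adjusted p 7.0e-05) in water mice at 4 weeks against 18 hours. At 1 week against 18 hours it rose by 1.42 (SE 0.24, adjusted p 0.000381) in OPP mice and by 0.99 (SE 0.24, adjusted p 0.0154) in water mice. The calls at 1 week were lost with quantile normalisation (0.91, adjusted p 0.0782 in OPP mice, and 0.69, adjusted p 0.236 in water mice). In water mice the call was also lost when the fit held the compared arrays only (adjusted p 0.0515) or left out replicate 2 or 3 of 18 hours or replicate 1 or 2 of 1 week.

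Ghr also had its lowest group means at 18 hours in both drinks. OPP livers gave 0.645, 0.596 and 0.584 at 18 hours, 1.01, 1.07 and 1.14 at 1 week, and 0.987, 0.942 and 1.24 at 4 weeks. Water livers gave 0.843, 0.888 and 0.585 at 18 hours, 1.17, 1.13 and 0.846 at 1 week, and 1.21, 1.29 and 1.33 at 4 weeks. In OPP mice neither later group overlapped with 18 hours, whereas in water mice the groups of 1 week and 18 hours overlapped. The receptor rose by 0.82 at 1 week (SE 0.14, adjusted p 0.000592) and by 0.79 at 4 weeks (SE 0.14, adjusted p 0.000846) against 18 hours in OPP mice. In water mice it rose by 0.74 at 4 weeks (SE 0.14, adjusted p 0.00256), and 1 week gave 0.45 (SE 0.14, adjusted p 0.0704). That last difference was called without replicate 3 of water at 1 week, the array with the high adipocyte median (0.60, adjusted p 0.0191), and also without replicate 2 of water at 18 hours (0.56, adjusted p 0.0410).

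Igf1, the hormone itself, was read by both of its probes. On probe 2 the OPP livers had 0.777, 0.760 and 0.663 at 18 hours, 1.15, 1.02 and 1.24 at 1 week, and 1.00, 1.05 and 1.03 at 4 weeks. The water livers had 0.873, 0.747 and 0.685 at 18 hours, 0.981, 1.01 and 0.895 at 1 week, and 1.08, 1.11 and 0.999 at 4 weeks. All 6 arrays of 18 hours were lower than all 12 arrays of the later times. Against 18 hours, probe 2 rose in OPP mice by 0.63 at 1 week (SE 0.10, adjusted p 0.000191) and by 0.49 at 4 weeks (SE 0.10, adjusted p 0.00164). In water mice it rose by 0.33 at 1 week (SE 0.10, adjusted p 0.0469) and by 0.47 at 4 weeks (SE 0.10, adjusted p 0.00381). The water call at 1 week was lost under 7 alternatives, with an adjusted p of 0.0558 without both liver arrays of high marker medians and 0.237 without replicate 3 of 18 hours. It was kept without the array of high adipocyte median alone.

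Probe 1 of Igf1 gave 0.63 at 1 week (adjusted p 0.000422) and 0.47 at 4 weeks (adjusted p 0.00472) against 18 hours in OPP mice, both called. With quantile normalisation the value at 4 weeks in OPP mice was 0.27, no longer called (adjusted p 0.0622). In water mice probe 1 gave 0.06 at 1 week (adjusted p 0.855) and a called rise of 0.36 at 4 weeks (adjusted p 0.0413). That 4-week call was lost when any of 5 of the 6 compared arrays was left out, with adjusted p up to 0.227. The 2 probes moved together over the 18 liver arrays (Pearson r 0.88), as did the 2 probes of Igfbp4 (0.96). Igfbp4, a carrier that holds IGF-1 away from its receptor, was called in OPP mice on both probes, with 0.38 and 0.52 at 1 week and 0.48 and 0.59 at 4 weeks against 18 hours (adjusted p 0.0456, 0.00426, 0.0122 and 0.00162). Quantile normalisation took all of these calls but the second probe at 4 weeks, and centring that of probe 1 at 1 week (adjusted p 0.0545). Probe 1 was also no longer called without any one of 4 of the compared arrays at 1 week (0.27 and adjusted p 0.2505 without replicate 3 of OPP at 1 week) and of 3 at 4 weeks (adjusted p up to 0.0577). In water mice its 4-week differences of 0.28 and 0.37 did not pass (adjusted p 0.226 and 0.0607), and the second was called under 5 alternatives, among them without both liver arrays of high marker medians (0.37, adjusted p 0.0400). Over the liver arrays, probe 2 of Igf1, Ghr, Igfbp2 and probe 2 of Igfbp4 correlated with one another at r of 0.78 to 0.91. That is a description of arrays that share the groups of time, with low means at 18 hours.

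None of the 13 probes was called at 4 weeks against 1 week in liver, where 1 probe of the whole table was called in each drink (0.00417%). Of the 13, 1 in OPP and 4 in water mice had an unadjusted p under 0.05, beside 1607 and 1725 of all 23982. The comparisons with 18 hours share the 18-hour arrays of their drink, so their values are not separate evidence.

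**Figure D2:**
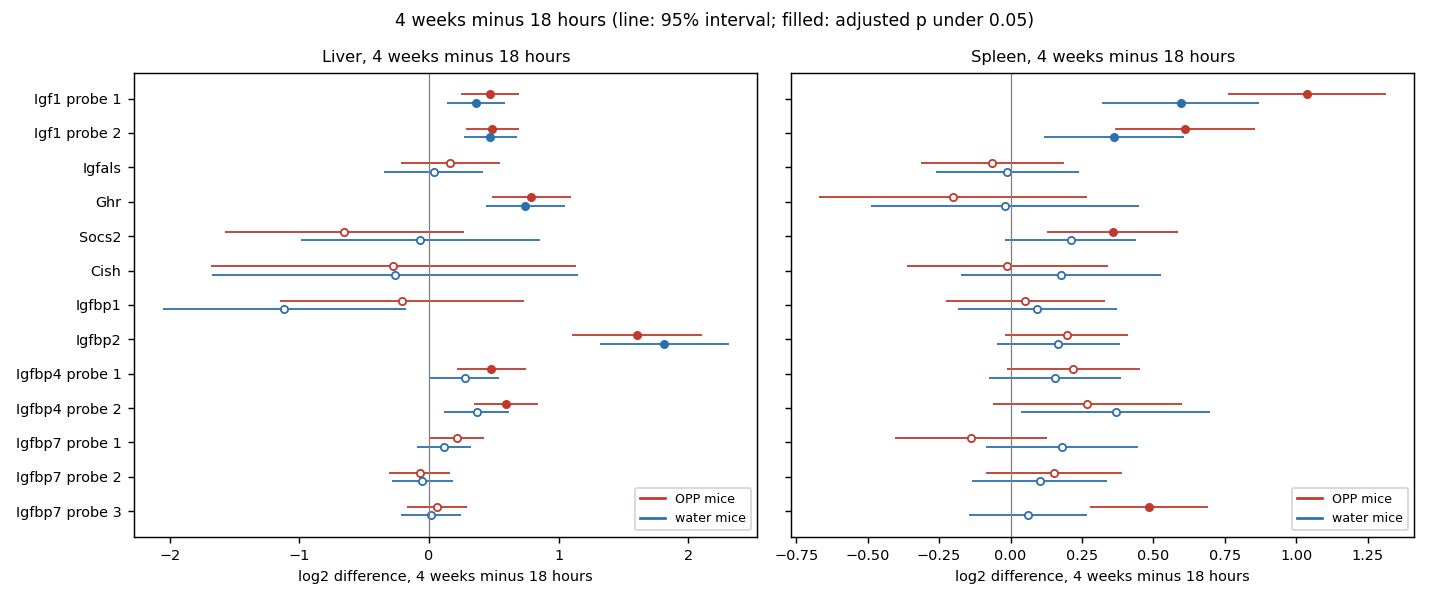
Log2 difference at 4 weeks minus 18 hours (horizontal axis) of each probe (vertical axis) in liver (left) and spleen (right), OPP mice in red above water mice in blue, with 95% intervals and filled points where the adjusted p was under 0.05. In liver Igfbp2 stands farthest right in both drinks, at 1.60 in OPP and 1.82 in water mice, and in spleen Igf1 probe 1, at 1.04 in OPP and 0.60 in water mice.

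The other STAT5-driven genes of the axis had no called rise from 18 hours in liver. Igfals, with its palindromes, ranged from 0.675 to 1.39 over the 18 arrays. Its difference at 4 weeks against 18 hours was 0.16 in OPP mice (95% interval -0.22 to 0.55) and 0.04 in water mice (-0.35 to 0.42), neither called. At 1 week against 18 hours it was 0.39 in OPP mice (SE 0.18, adjusted p 0.171) and -0.39 in water mice (SE 0.18, adjusted p 0.257).

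Socs2 and Cish, the inhibitors, varied between arrays of a group more than between groups. Cish was 0.804, 0.861 and 3.17 in OPP livers at 4 weeks, against 4.08, 0.542 and 0.478 in water livers at 4 weeks. In each group 1 array lay far above the other two, and the groups overlapped. Over the 18 liver arrays Cish spanned 0.426 to 4.08, and its spread within groups, an SD of 1.00 on the log2 scale, was larger than that over all arrays (0.91). No time difference of Socs2 or Cish was called in liver, and at 4 weeks against 18 hours that of Cish was -0.27 in OPP mice (95% interval -1.69 to 1.14) and -0.26 in water mice (-1.68 to 1.15).

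Igfbp1 moved differently from Igfbp2. OPP livers had 0.808, 2.08 and 0.513 at 18 hours, 1.94, 1.45 and 2.90 at 1 week, and 0.808, 1.23 and 0.565 at 4 weeks. Water livers had 1.12, 1.00 and 0.996 at 18 hours, 2.26, 2.25 and 0.747 at 1 week, and 0.433, 0.389 and 0.651 at 4 weeks. In both drinks the arrays of 4 weeks lay below those of 1 week. The differences at 4 weeks against 1 week were -1.29 in OPP mice (SE 0.45, adjusted p 0.653) and -1.70 in water mice (SE 0.45, adjusted p 0.476), and neither was called. In water mice 4 weeks against 18 hours gave -1.12 (SE 0.45, adjusted p 0.151), called when the fit held those 6 arrays alone (adjusted p 0.000883). Among 9 other genes that insulin represses or fasting induces, 2 rose and none fell at 4 weeks against 18 hours in OPP livers, and 1 fell in water livers. Of all probes 16.9% in OPP livers and 9.21% in water livers were called in either direction. G6pc, the last enzyme of glucose release, rose by 3.28 (SE 0.54, adjusted p 0.000345) at 1 week and by 2.49 (SE 0.54, adjusted p 0.00339) at 4 weeks against 18 hours in OPP mice.

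Igfbp7 gave no called difference in liver. Its probes disagreed, with correlations over the liver arrays of 0.05, 0.01 and -0.52 between pairs, and ranged from 0.826 to 1.29.

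Other genes of the pathway were described by lists, each gene standing with its most variable probe. Beside the list counts at 4 weeks against 18 hours, 16.9% of all probes were called in OPP livers and 9.21% in water livers, in either direction. Among 25 genes of growth hormone receptor signalling, 8 rose and 3 fell at 4 weeks against 18 hours in OPP livers, and 1 rose and 4 fell in water livers, with list medians of 0.14 and 0.06. Ptpn1, a phosphatase that removes the activating phosphate from JAK2, fell by 0.73 in OPP livers (SE 0.09, adjusted p 2.35e-05) and by 0.67 in water livers (SE 0.09, adjusted p 7.96e-05). Jak2 rose by 0.49 in OPP livers (SE 0.12, adjusted p 0.00682), and Ptpn11, the phosphatase SHP2, by 0.69 (SE 0.11, adjusted p 0.000366). Socs3, an inhibitor induced by inflammatory cytokines, fell by 1.39 in water livers (SE 0.34, adjusted p 0.0130).

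Of 14 further ligands, receptors and carriers, 3 rose and none fell in OPP livers at 4 weeks against 18 hours, namely Igf2r, the receptor that clears IGF-2 (0.63, adjusted p 0.000524), Igfbp3, the main serum carrier of IGF-1 (0.42, adjusted p 0.00190), and Stc1 (0.31, adjusted p 0.0268). In water livers 0 of the 14 were called in limma, and 1 had an unadjusted p under 0.05, beside 4785 of all 23982 probes. Of 20 genes of insulin and IGF receptor signalling, 6 rose and 1 fell in OPP livers, and 3 rose and none fell in water livers. Grb14, an adaptor that dampens insulin receptor signalling, rose by 0.74 in OPP livers (SE 0.11, adjusted p 0.000127). Pik3cb, a catalytic subunit of PI3 kinase, rose by 0.75 in OPP livers and by 0.73 in water livers (SE 0.13 each, adjusted p 0.000447 and 0.00105).

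Genes that the pulsed growth hormone of males keeps high in liver gave 9 called higher of 15 measured in OPP livers, at 1 week and at 4 weeks against 18 hours, with medians of 0.98 and 0.85. Of all probes 14.7% and 13.7% were called higher there, with medians of 0.03 and 0.04. In water livers 3 of 15 were called higher at 1 week and 2 of 15 at 4 weeks, with medians of 0.04 and 0.01. Beside these, 4.46% and 5.91% of all probes were called higher, with medians of 0.01 and 0.02. None of the 15 was called lower in either drink. Cyp4a12a, a fatty acid hydroxylase of male liver, rose by 1.59 in OPP livers (SE 0.15, adjusted p 1.29e-06) and by 1.08 in water livers (SE 0.15, adjusted p 0.000109) at 4 weeks against 18 hours. Hsd3b5, a steroid-metabolising enzyme of male liver, rose by 2.13 in OPP livers (SE 0.28, adjusted p 4.45e-05). Whether the OPP effect on these genes differed between times was tested with a moderated F test, in which 0 of 15 passed. In that test 8 of the 15 had an unadjusted p under 0.05, beside 2226 of all 23982 probes, and Hsd3b5 had the lowest adjusted p of 0.0664. Of 15 genes higher in female liver, 1 rose and 2 fell in OPP livers and 2 rose and 2 fell in water livers at 4 weeks. Cyp17a1, a steroid hydroxylase, fell by 1.18 in OPP livers (SE 0.21, adjusted p 0.000566) and by 1.69 in water livers (SE 0.21, adjusted p 3.32e-05).

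The livers of 18 hours also carried a strong acute phase signal. Of 22 acute phase genes measured, 17 in OPP livers and 18 in water livers were lower at 4 weeks than at 18 hours, and none was higher. The median log2 ratio of the list per array was 0.92 to 1.31 in OPP livers and 1.26 to 1.29 in water livers at 18 hours, and -0.38 to 0.12 in the 12 livers of the later times. Saa3, a serum amyloid, had -7.37 in OPP livers (SE 0.40, adjusted p 3.07e-09) and -7.14 in water livers (SE 0.40, adjusted p 4e-09). The arrays low in Igfbp2 and in probe 2 of Igf1 were those high in acute phase genes, while for Ghr and for probe 1 of Igf1 single water livers of 18 hours lay above single later livers.

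Markers of cell types also moved between these livers. Of 6 macrophage markers, Marco and Adgre1 fell at 4 weeks against 18 hours, with -3.38 and -1.88 in OPP livers and -3.48 and -1.93 in water livers, and the other 4 were not called in either drink. The list median per array was 0.02 to 0.10 in OPP livers and 0.04 to 0.38 in water livers at 18 hours, and -0.12 to -0.01 in OPP livers and -0.08 to 0.23 in water livers at 4 weeks. Of 14 hepatocyte markers, 9 rose and none fell in OPP livers, and 3 rose and 1 fell in water livers. Their median per array in OPP livers was -0.27 to -0.20 at 18 hours, -0.09 to 0.23 at 1 week and -0.04 to 0.21 at 4 weeks, with no overlap of 18 hours and the later times. In water livers it was -0.23 to -0.02 at 18 hours, -0.18 to 0.04 at 1 week and 0.02 to 0.16 at 4 weeks. The part of the acute phase genes and of these markers in the results for Igfbp2, Ghr and Igf1 was not tested.

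**Figure D3:**
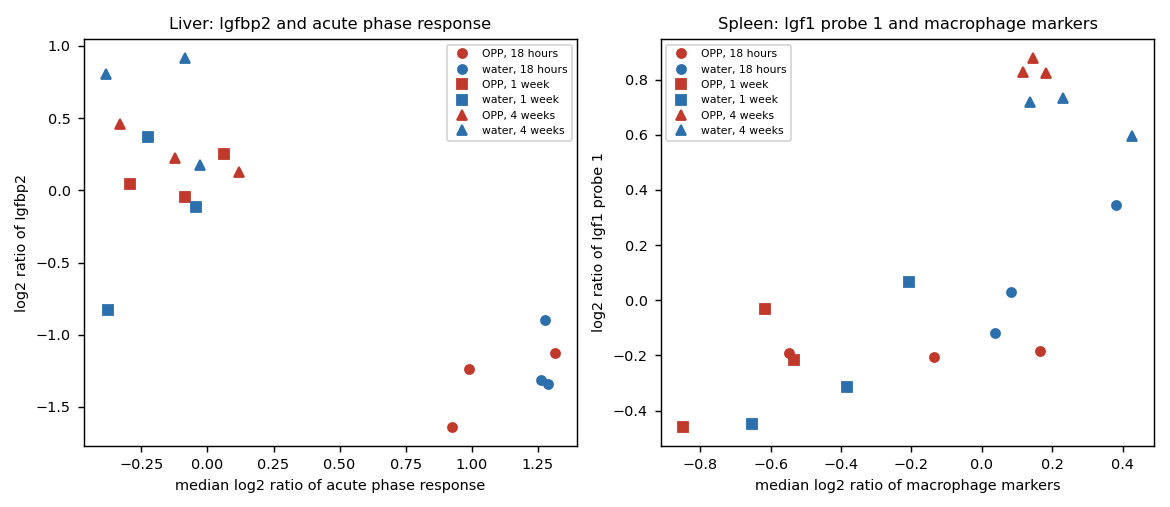
Left, log2 ratio of Igfbp2 (vertical axis) against the median log2 ratio of the acute phase list (horizontal axis) in the 18 liver arrays; right, Igf1 probe 1 against the macrophage marker median in the 18 spleen arrays. Colour gives the drink and shape the time. The 6 livers of 18 hours form a group of their own at high acute phase medians and low Igfbp2, and the 6 spleens of 4 weeks have the highest Igf1.

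**Figure D4:**
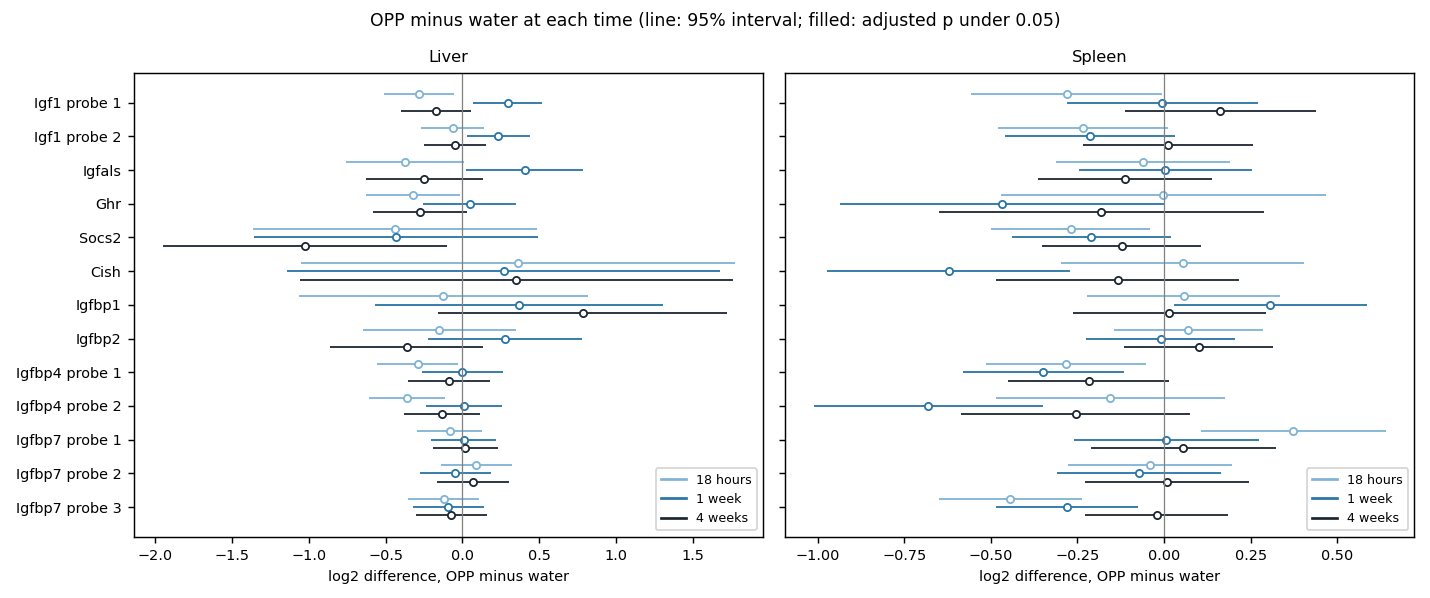
Log2 difference of OPP minus water (horizontal axis) of each probe (vertical axis) at 18 hours, 1 week and 4 weeks in liver (left) and spleen (right), with 95% intervals. No point is filled, because no probe of the axis had an adjusted p under 0.05 at a single time.

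OPP against water, the comparison the study was built on, gave 0 called probes of the axis in liver at each of the 3 times. Over all probes 0% were called at 18 hours, 0.926% at 1 week and 0.0625% at 4 weeks. At an unadjusted p under 0.05 there were 4, 3 and 1 of the 13 probes, beside 1824, 2612 and 1857 of all 23982. At 18 hours the OPP livers lay lower than the water livers on 11 of 13 probes, with a median of -0.15 against -0.04 for all probes. With quantile normalisation Igf1 probe 2 (0.05) and Igfbp2 (0.02), among these 11, became positive. The groups of 18 hours did not overlap for 4 of the 13 probes, where 14.7% of all probes did not overlap. The count was 3 at 1 week and 0 at 4 weeks, times for which the share of all probes is not given.

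Igf1 probe 1 was 0.752, 0.738 and 0.709 in OPP livers at 18 hours, against 0.985, 0.924 and 0.776 in water livers at 18 hours. The difference was -0.28 (SE 0.11, adjusted p 0.582). At 1 week the same probe was 1.03, 1.09 and 1.30 in OPP livers, against 0.929, 1.02 and 0.840 in water livers, a difference of 0.29 (SE 0.11, adjusted p 0.279). At 4 weeks it was 0.908, 1.02 and 1.14 in OPP livers, against 1.15, 1.17 and 1.12 in water livers, a difference of -0.17 (95% interval -0.40 to 0.05). On this probe the groups did not overlap at 18 hours and 1 week, but no difference passed. Probe 2 had -0.06 at 18 hours (SE 0.10, adjusted p 0.920), with overlapping groups and 0.05 with quantile normalisation, then 0.23 at 1 week (SE 0.10, adjusted p 0.370) and -0.05 at 4 weeks (SE 0.10, adjusted p 0.971). For probe 1 the moderated F test over times did not pass (adjusted p 0.231, with 0.108% of all probes called). Igfbp4 probe 2 had -0.36 at 18 hours (SE 0.12, adjusted p 0.519), the smallest p of the 13 there.

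Socs2 had the largest OPP difference in liver. Its ratios at 4 weeks were 0.338, 0.373 and 1.77 in OPP livers, against 1.41, 1.30 and 1.04 in water livers. Replicates 1 and 2 of OPP were the lowest of the 18 livers and replicate 3 the highest, so the groups overlapped. The difference was -1.03 (SE 0.44, adjusted p 0.574). Without replicate 3 of OPP at 4 weeks Socs2 fell by 1.80 (adjusted p 0.0128), and averaged over the times it fell by 0.89 (adjusted p 0.00639), against -0.63 (adjusted p 0.373) with all arrays. Replicate 1 is the array with the high acinar median.

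Averaged over the times, 0 of the 13 probes were called in liver, where 0.346% of all probes were. At an unadjusted p under 0.05 there were 3 of the 13, beside 2479 of all 23982. Ghr averaged -0.18 (SE 0.08, adjusted p 0.456). Foxo1, the insulin-regulated factor, was the one gene of the pathway lists called in liver at a single time, and fell by 0.61 with OPP at 1 week (SE 0.14, adjusted p 0.0459). Elovl3, a fatty acid elongase of male liver, had 1.46 at 1 week (adjusted p 0.123) and 1.81 at 4 weeks (adjusted p 0.121), neither called.

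**Figure D5:**
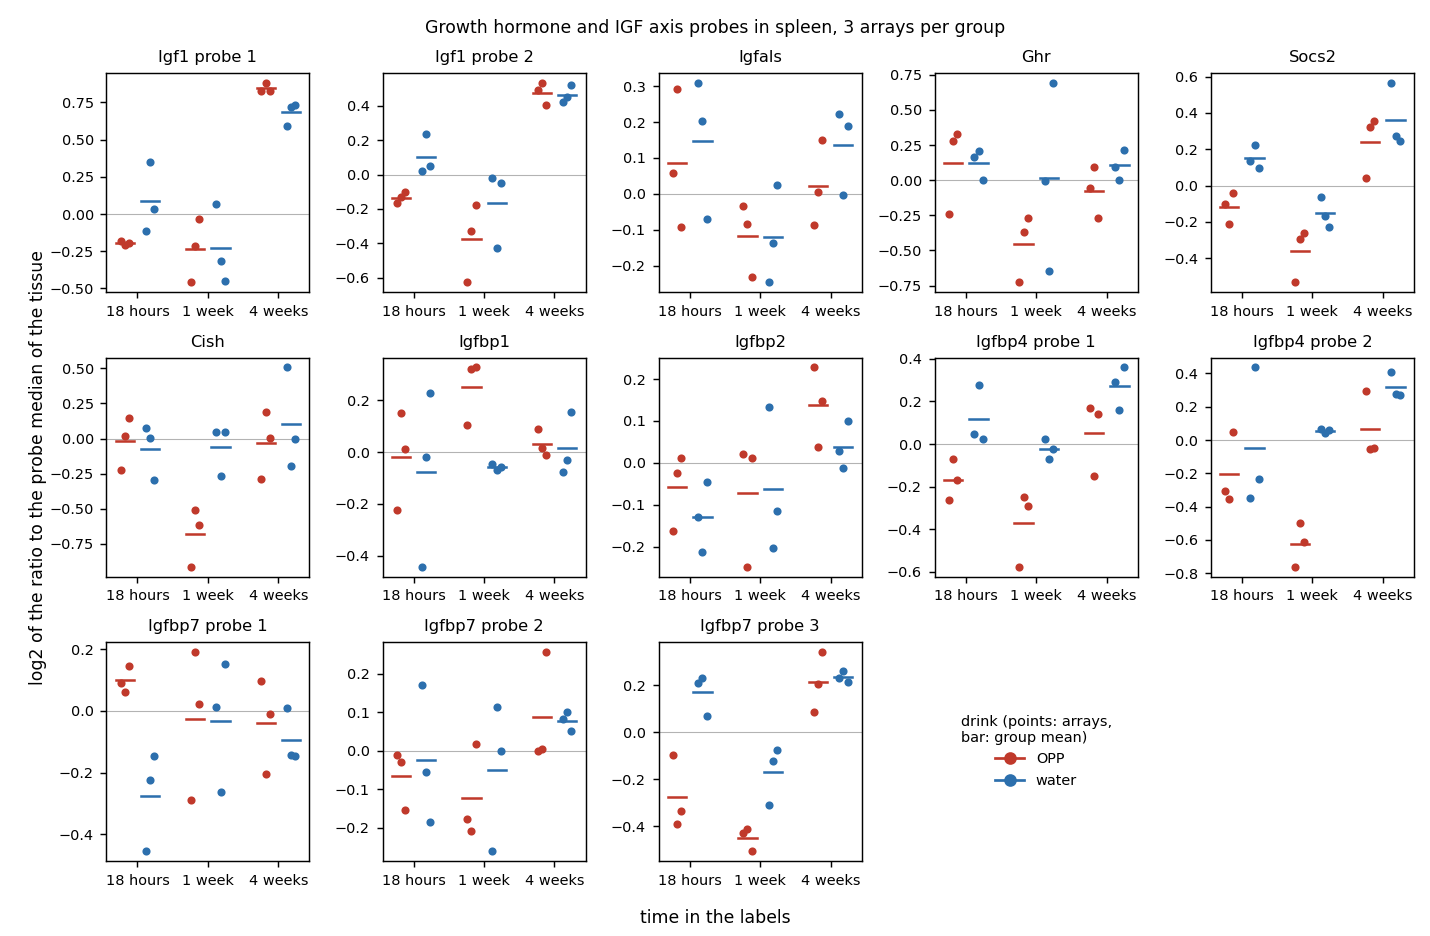
Log2 ratio (vertical axis) of the 13 probes in the 18 spleen arrays at each time (horizontal axis), with OPP in red left of water in blue, a point per array and a bar at each group mean. Both probes of Igf1 were highest in the 6 arrays of 4 weeks, and Socs2 and Igfbp7 probe 3 were lowest at 1 week with OPP.

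In spleen, Igf1 was the member that changed most, and it did so late. On probe 1 the OPP spleens had 0.881, 0.867 and 0.875 at 18 hours, 0.727, 0.860 and 0.978 at 1 week, and 1.78, 1.84 and 1.77 at 4 weeks. The water spleens had 0.922, 1.27 and 1.02 at 18 hours, 1.05, 0.805 and 0.733 at 1 week, and 1.51, 1.65 and 1.66 at 4 weeks. All 6 arrays of 4 weeks lay above all 12 earlier ones. At 4 weeks against 18 hours probe 1 rose by 1.04 in OPP mice (SE 0.13, adjusted p 1.2e-05) and by 0.60 in water mice (SE 0.13, adjusted p 0.00379). At 4 weeks against 1 week it rose by 1.08 in OPP mice (SE 0.13, adjusted p 0.000101) and by 0.91 in water mice (SE 0.13, adjusted p 0.000608). These rises stand on a shift of all probes, whose median difference was 0.11 to 0.17 in the 4-week comparisons of spleen.

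Probe 2 rose by 0.61 in OPP mice (adjusted p 0.000453) and by 0.36 in water mice (adjusted p 0.0297) at 4 weeks against 18 hours. With each array centred on its median the water rise on probe 2 was 0.24 (adjusted p 0.176), with quantile normalisation 0.15 (adjusted p 0.423), and without the arrays of high marker medians 0.45 (adjusted p 0.0982), none of them called; it was also not called without any one of 5 of the 6 compared arrays (adjusted p up to 0.0926). Quantile normalisation also took the call from probe 1 in water mice (0.41, adjusted p 0.0770). At 4 weeks against 18 hours 4 of the 13 probes were called in OPP mice, where 28.0% of all probes were, and 2 of the 13 in water mice, where 24.3% were. The counts against 1 week were 7 of 13 in OPP mice, against 30.1% of all probes, and 4 of 13 in water mice, against 26.1%. Every one of these calls was higher at 4 weeks, where the share of all probes called higher against 18 hours was 27.0% in OPP and 23.0% in water mice, and against 1 week 28.8% in OPP and 24.4% in water mice.

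The calls beside Igf1 fell on Socs2 and Igfbp7 probe 3 in both drinks, and on Cish and Igfbp4 in OPP mice only. Socs2 was 0.932, 0.864 and 0.971 at 18 hours, 0.691, 0.817 and 0.835 at 1 week, and 1.03, 1.25 and 1.28 at 4 weeks in OPP spleens. In water spleens it was 1.10, 1.17 and 1.07 at 18 hours, 0.958, 0.891 and 0.854 at 1 week, and 1.48, 1.21 and 1.19 at 4 weeks. In both drinks the 4-week arrays lay above the 1-week arrays. The rise at 4 weeks against 1 week was 0.60 in OPP mice (SE 0.11, adjusted p 0.000698) and 0.51 in water mice (SE 0.11, adjusted p 0.00373). Against 18 hours it was 0.36 in OPP mice (adjusted p 0.0178), a call lost with centring (0.23, adjusted p 0.120) and with quantile normalisation (0.18, adjusted p 0.148). The call was also lost without any one of 3 of the compared arrays (adjusted p up to 0.0940).

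Cish was lowest at 1 week with OPP, with 0.531, 0.701 and 0.653 in OPP spleens, against 1.03, 0.830 and 1.03 in water spleens. In OPP mice it fell by 0.66 at 1 week against 18 hours (SE 0.17, adjusted p 0.0336), where 4.16% of all probes were called and 1.84% called lower, and it was the one call of the 13. That call was lost without any of 4 of the 6 compared arrays, among them replicate 1 of OPP at 1 week with the high hepatocyte median (-0.54, adjusted p 0.143), and without all arrays of high marker medians (adjusted p 0.155). Cish rose by 0.65 in OPP mice at 4 weeks against 1 week (SE 0.17, adjusted p 0.00677), and its difference was 0.53 without the arrays of high marker medians, no longer called (adjusted p 0.0521). With quantile normalisation it was 0.45, also not called (adjusted p 0.0639). In water mice 0 of the 13 were called at 1 week against 18 hours in limma, where 0.650% of all probes were. At an unadjusted p under 0.05 there were 5 of the 13, beside 3017 of all 23982.

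Igfbp7 probe 3 rose at 4 weeks against 1 week by 0.66 in OPP mice (SE 0.10, adjusted p 0.000204) and by 0.40 in water mice (SE 0.10, adjusted p 0.00779). The water value was not called with centring (adjusted p 0.0579) or quantile normalisation (0.30, adjusted p 0.0785). At 4 weeks against 18 hours Igfbp7 probe 3 was also called higher in OPP mice, a call lost with quantile normalisation (0.28, adjusted p 0.0557). Its other 2 probes gave no call, and the 3 probes correlated at -0.30, -0.39 and 0.63 over the spleen arrays, so Igfbp7 has no single direction. Igfbp4 rose in OPP mice at 4 weeks against 1 week on both probes, by 0.42 and 0.69 (adjusted p 0.00713 and 0.00312). The smaller of these was lost with centring (0.29, adjusted p 0.0725) and with quantile normalisation (0.22, adjusted p 0.182). It was also lost without replicate 1 of OPP at 1 week, either alone (0.32, adjusted p 0.0529) or with the other arrays of high marker medians (adjusted p 0.0515). In water mice probe 1 was called at 4 weeks against 1 week without the arrays of high marker medians (0.29, adjusted p 0.0423). Ghr, Igfals, Igfbp1 and Igfbp2 had no called time difference in spleen. Igfbp2 stayed between 0.842 and 1.17 over the 18 spleens.

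Markers of several cell types moved with Igf1 in spleen. Over 6 macrophage markers the median log2 ratio per array was -0.55 to 0.17 in OPP spleens and 0.04 to 0.38 in water spleens at 18 hours, -0.85 to -0.53 in OPP and -0.65 to -0.21 in water spleens at 1 week, and 0.12 to 0.18 in OPP and 0.14 to 0.43 in water spleens at 4 weeks. At 4 weeks against 1 week 4 of the 6 rose in each drink, where 28.8% of all probes in OPP mice and 24.4% in water mice were called higher. Among the 4 was C1qc, by 0.95 in OPP mice (adjusted p 0.000204) and by 0.93 in water mice (adjusted p 0.000736). At 4 weeks against 18 hours the list gave 2 higher in OPP mice, C1qc (0.56, adjusted p 0.00489) and C1qa (0.58, adjusted p 0.00563), and in water mice 1 lower, Marco (-1.32, adjusted p 0.00897). The 2 probes of Igf1 were called higher in both of these. Of 5 B cell markers 3 rose in OPP mice and 4 in water mice at 4 weeks against 18 hours, of 5 T cell markers 2 and 3, and of 5 erythroid markers 3 and 2, with none lower. Of all probes 27.0% in OPP mice and 23.0% in water mice were called higher in this comparison.

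The B cell median per array was -0.33 to -0.01 in OPP spleens and -0.23 to 0.02 in water spleens at 18 hours, -0.26 to 0.06 in OPP and -0.22 to 0.20 in water spleens at 1 week, and 0.20 to 0.25 in OPP and 0.53 to 0.57 in water spleens at 4 weeks. The erythroid median was -0.42 to -0.02 in OPP spleens and -0.25 to -0.12 in water spleens at 18 hours, -0.20 to -0.03 in OPP and -0.76 to 0.00 in water spleens at 1 week, and 0.10 to 0.31 in OPP and 0.12 to 0.22 in water spleens at 4 weeks. Within each drink the B cell, T cell and erythroid medians of 4 weeks lay above those of both earlier times, whereas the macrophage medians of 4 weeks and 18 hours overlapped in both drinks. These medians were not centred, and the array medians of all probes also lay higher at 4 weeks (0.08 to 0.11) than before (-0.06 to 0.00). The T cell medians of OPP spleens at 4 weeks, 0.07 to 0.16, were close to the array medians. Of 7 neutrophil markers none was called in OPP mice and 5 fell in water mice at 4 weeks against 18 hours. Of all 23982 probes, 252 in OPP mice and 321 in water mice were called lower in this comparison. The part of these markers in the Igf1 result was not tested.

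Among the pathway lists in spleen, growth hormone receptor signalling had 14 of 25 higher in OPP mice and 12 of 25 higher in water mice at 4 weeks against 1 week, with none lower and medians of 0.38 and 0.34, beside 0.17 and 0.15 for all probes. Stat5a, one of the STAT5 factors, rose by 0.64 in OPP mice (SE 0.14, adjusted p 0.00190), and Socs1, a related inhibitor, by 0.42 in OPP mice (SE 0.09, adjusted p 0.00163) and 0.35 in water mice (SE 0.09, adjusted p 0.00814). Of the 14 ligands, receptors and carriers 5 rose in OPP mice and 3 in water mice, with Igf2, the second IGF, at 0.61 in OPP mice (adjusted p 0.00197) and 0.66 in water mice (adjusted p 0.00264). Beside these list counts, 28.8% of all probes in OPP mice and 24.4% in water mice were called higher at 4 weeks against 1 week.

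With OPP against water, 0 of the 13 probes were called in spleen at 18 hours, 1 week or 4 weeks. Of all probes 0%, 0.00834% and 0.334% were. At an unadjusted p under 0.05 there were 5, 5 and 0 of the 13, beside 2615, 2442 and 2128 of all 23982. At 1 week the groups did not overlap for 6 of the 13 probes, where 12.9% of all probes did not overlap. The count was also 6 at 18 hours, and it was 1 at 4 weeks, times for which the share of all probes is not given. Igfbp4 probe 2 was 0.590, 0.707 and 0.655 in OPP spleens, against 1.05, 1.03 and 1.04 in water spleens at 1 week, all of OPP below all of water. The difference was -0.68 (SE 0.16, adjusted p 0.209). Cish had -0.62 (SE 0.17, adjusted p 0.231), and Ghr -0.47 (SE 0.22, adjusted p 0.492).

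Averaged over the times, 3 of the 13 probes were called lower with OPP in spleen, where 1.64% of all probes were called lower and 1.69% in either direction. Igfbp4 fell by 0.28 on probe 1 (SE 0.06, adjusted p 0.0356) and by 0.36 on probe 2 (SE 0.09, adjusted p 0.0477). Igfbp7 probe 3 fell by 0.25 (SE 0.06, adjusted p 0.0360), beside values of 0.15 and -0.04 on its other probes. None of the 3 was called with each array centred (adjusted p 0.0560, 0.0726 and 0.0610), with quantile normalisation, or without the arrays of high hepatocyte median (adjusted p 0.206, 0.236 and 0.158), and each was lost with some single arrays left out. Igfbp4 probe 1 lost its call without any one of 11 of the 18 spleen arrays (adjusted p up to 0.0897), Igfbp4 probe 2 without any one of 13 (up to 0.125) and Igfbp7 probe 3 without any one of 13 (up to 0.0895). The moderated F test over times called 0 of the 13 in spleen, where 0.00417% of all probes passed. In that test 2 of the 13 had an unadjusted p under 0.05, beside 1664 of all 23982.

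In the 3 spleens with high hepatocyte marker medians, Igfbp2, a carrier made in liver, had log2 ratios of -0.21 and -0.05 in water replicates 2 and 3 of 18 hours and 0.02 in OPP replicate 1 of 1 week, near its spleen median. On Igf1 probe 1, water replicate 2 of 18 hours had the highest ratio of its group (1.27). OPP replicate 1 of 1 week had the lowest of its group (0.727). Without water replicate 2 of 18 hours, Igfbp4 probe 2 was called higher at 4 weeks against 18 hours in water mice (0.61, adjusted p 0.00553). With all arrays that difference was not called. The part of liver RNA in these values was not tested.

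Liver and spleen were set side by side in 1 fit over the 36 arrays. The fit did not pair liver and spleen arrays of the same replicate number, and whether such arrays deviate together was not checked. The OPP effect in liver minus that in spleen was called for 0 of the 13 probes at 18 hours, 1 week and 4 weeks, where 0%, 0.271% and 0.0792% of all probes were. At an unadjusted p under 0.05 there were 2, 3 and 0 of the 13, beside 1303, 2326 and 1798 of all 23982. In water mice the change at 4 weeks against 18 hours was larger in liver than in spleen for Igfbp2, by 1.65 (SE 0.27, adjusted p 0.000131), and this was the 1 call of the 13, where 13.4% of all probes were called and 2.20% in that direction. Ghr was called here with centring (0.87, adjusted p 0.0473), quantile normalisation (0.86, adjusted p 0.0277), array weights (0.73, adjusted p 0.0227) and compared arrays only (0.76, adjusted p 0.00823). Igfbp1 was called with the compared arrays only (-1.21, adjusted p 0.00236). At 1 week against 18 hours 2 of the 13 were called, where 3.43% of all probes were and 2.29% in that direction, namely Igf1 probe 2 with 0.60 (SE 0.15, adjusted p 0.0244) and Igfbp7 probe 3 with 0.56 (SE 0.15, adjusted p 0.0264). On Igf1 probe 1 the same difference was 0.38 (SE 0.18, adjusted p 0.284). For Igfbp2 it was called without the arrays of high marker medians (1.24, adjusted p 0.0426).

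The genes most like each member over the 18 liver arrays, by Pearson correlation of log2 ratios on the member's most variable probe, were other than members in every case. Ghr was closest to Ulk2, Ak3 and Proc (r of 0.97 each). Igf1 probe 2 was closest to Ccs (0.95), Ube2d2a (0.95) and Retsat (0.94), and Igfbp2 to Decr2, Ugt3a2 and Ftcd (0.94 each). Igfbp4 probe 2 was closest to BC005537 (0.94), Slc25a13 (0.93) and Tex264 (0.93), and Igfbp1 to Rhbg (0.90), Efcab1 (0.81) and Lin37 (0.80). The inhibitor Cish was closest to Csrnp1 (0.86), Plk3 (0.81) and Foxq1 (0.76), and Socs2 to Rbks (0.86), Fmo4 (0.85) and Lsm8 (0.84). Igfals was closest to Tpcn1 (0.88), Sem1 (0.85) and Myo19 (0.85), and Igfbp7 probe 3 to Xpo4 (0.81), Hnrnpu (0.81) and Ddx47 (0.80). These are descriptions over arrays that share groups and processing.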

How the data were processed

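Spleen and liver RNA of 12 groups of 3 was measured on Illumina BeadChips. Per the labels' protocols, RNA was extracted with Qiagen RNeasy kits and biotin-labelled with an Ambion TotalPrep kit. The deposited value table holds linear ratios, a probe divided by its median within the 18 arrays of 1 tissue; this was read from the values, whose row medians were within 0.0005 of 1 in liver and 0 away in spleen. The background correction and scaling behind it are not given in the sources used here. The lowest ratio is 0.01, in 20 values, none of them in a member. A second table was not used because its 72 columns match no sample label.

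Log2 ratios were fitted per tissue with limma 3.58.1 under R 4.3.3, with 6 group means and 12 residual degrees of freedom, and over all 36 arrays for comparisons between tissues. No filter or offset was applied. The threshold was an adjusted p of 0.05 (Benjamini-Hochberg over all 23982 probes), and of these 19344 have 1 gene symbol, 0 several and 4638 none. The number of arrays limits the precision. All member probes are named; of each list at most 4 called genes by smallest p, or otherwise the 2 of smallest p. For each member the 3 genes of highest Pearson r are named. Members, lists and marker lists were chosen with earlier results of these data known. Alternatives were centring, quantile normalisation, array weights, a robust prior, compared arrays only, a replicate block and leaving out each array. Leaving out the 5 arrays of high marker medians was chosen after seeing the data. The fit was tested on simulated data. Within each tissue, samples with the same replicate number did not deviate together (18 sets of groups, 0 with every correlation over 0.1). Liver was not compared with spleen in this way.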

Additional observations from a re-analysis of the deposited data

Results flagged for a closer look

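In 3 cases the change with time in water mice differed between liver and spleen by a test of the difference itself. The fit takes 1 spread per probe for both tissues and pairs no liver with a spleen. Igfbp2 rose more in liver than in spleen at 4 weeks against 18 hours, by 1.65 (adjusted p 0.000131). Igf1 probe 2 differed by 0.60 at 1 week against 18 hours (adjusted p 0.0244), and Igfbp7 probe 3 by 0.56 (adjusted p 0.0264). The 1-week differences were not called with the compared arrays only (adjusted p 0.152 for Igf1 probe 2 and 0.168 for Igfbp7 probe 3), nor without the arrays of high marker medians (adjusted p 0.156 and 0.0700). They were also lost without any one of 5 arrays for Igf1 probe 2 (adjusted p up to 0.0983) and of 6 for Igfbp7 probe 3 (up to 0.118), and the other probes of Igf1 and Igfbp7 were not called.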

How the results depend on the processing

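No value of the 13 probes changed sign with a call under any alternative. Of 42 called differences, 42 kept the call with array weights and with a robust prior, 39 with the replicate block, 35 of 39 with the compared arrays only, 34 with each array centred, 32 without the 5 arrays of high marker medians and 25 with quantile normalisation. The replicate block used numbers that did not pair the samples within a tissue. It took the call from Igf1 probe 1 in water livers at 4 weeks against 18 hours (adjusted p 0.0595). It also took the call from Igfbp4 probe 1 in OPP livers at 1 week against 18 hours (adjusted p 0.0556). The last call it took was that of Igfbp4 probe 2 for OPP against water averaged in spleen (adjusted p 0.0563). Counts of called probes that moved by over 1.5 times were as follows. At 1 week against 18 hours in water livers 2 became 0 with quantile normalisation or compared arrays only, and in OPP livers 6 became 3 with quantile normalisation. In spleen the averaged OPP count of 3 became 0 with centring, quantile normalisation or without the high-marker arrays. In water spleens at 4 weeks against 18 hours 2 became 1 with centring or without those arrays and 0 with quantile normalisation, and 0 at 1 week became 1 with quantile normalisation. In OPP spleens at 1 week 1 became 2 with compared arrays only and 0 without those arrays, and 4 at 4 weeks against 18 hours became 2 with quantile normalisation. Between tissues, the OPP effect at 4 weeks had 1 call in place of 0 with array weights, the 2 at 1 week against 18 hours became 0 with compared arrays only and 1 without those arrays, and the 1 at 4 weeks became 2 with centring, quantile normalisation or array weights and 3 with compared arrays only. The cause was not tested. Leaving out each array gave 0 to 3 for 1 week against 18 hours in liver against the same in spleen in water mice, 5 to 6 for 1 week against 18 hours in liver of OPP mice, 0 to 3 for 1 week against 18 hours in liver of water mice, 0 to 1 for 1 week against 18 hours in spleen of OPP mice, 6 to 7 for 4 weeks against 1 week in spleen of OPP mice, 4 for 4 weeks against 1 week in spleen of water mice, 1 for 4 weeks against 18 hours in liver against the same in spleen in water mice, 5 to 6 for 4 weeks against 18 hours in liver of OPP mice, 3 to 5 for 4 weeks against 18 hours in liver of water mice, 3 to 4 for 4 weeks against 18 hours in spleen of OPP mice, 1 to 3 for 4 weeks against 18 hours in spleen of water mice, 0 to 1 for OPP against water in liver at 4 weeks, 0 to 1 for OPP against water in liver averaged over times, 0 to 3 for OPP against water in spleen averaged over times, 0 to 1 for OPP effect in liver against OPP effect in spleen at 4 weeks, and 0 in every other comparison. The ratios keep no signal over background, so a dim probe cannot be told from a bright one.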
